A study of Mus musculus with 3 samples.

Results

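The cells described here are IgM-expressing cells that carried at least 3 transcripts of a group of 7 led by Zbtb32, with limits on transcripts of division and antibody secretion. The series held 35102 usable cells of B cell preparations from spleens of BXD2 females, a lupus-prone inbred line, and 221 of them were chosen by the measured RNA counts of their own transcripts. A cell was a member when it had a UMI (1 counted RNA molecule) of at least 3 of 7 genes (Zbtb32, Parm1, Ass1, Ahnak, Fscn1, Cd80 and Fah), at least 5 Ighm UMIs, more Ighm UMIs than the sum of Ighg1, Ighg2b, Ighg2c, Ighg3 and Igha, fewer than 3 Mki67 plus Top2a UMIs, and not both 5 Edem1 and 20 Mzb1 UMIs, a level that marks antibody-secreting cells. All mice were wild-type BXD2. The R848 group received 25 µg of an anti-IL-4 antibody alone and the IL-4+R848 group received 5 µg IL-4 bound to 25 µg of that antibody, and both received R848, an agonist of the RNA sensor TLR7, 2 hours later at 40 µg per 20 g of body weight. The course was repeated after 2 days and spleens were taken 2 days after that, with 3 mice per group. B cells were isolated by negative selection rather than by a B-1 or memory marker, and treatments were told apart by hashtag antibodies within 3 pooled 5′ single-cell libraries (sets 1 to 3). Nothing in the labels ties a set to 1 mouse of each treatment, so the p-values measure only the spread between sets.

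B-1 cells are innate-like B cells that arise early in life, renew themselves and use few, largely unmutated antibodies, among them antibodies to phosphatidylcholine that are built from the pair Ighv11-2 and Igkv14-126. Memory B cells are made after an encounter with antigen, and both IgM and class-switched forms carry CD80 and CD273 (PD-L2) to different degrees. Zbtb32 encodes a transcriptional repressor found in both kinds of cell, so its RNA alone does not separate them.

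The heavy and light chain variable genes were a readout that the rule did not use. The last 300 bases of their germline coding sequences (from coding base 54) are shown because the pair recurred among the members in every set. Both are the GRCm38 reference forms, which need not match the BXD2 alleles base for base. Ighv11-2 (ENSMUSG00000096108) lies on the minus strand of chr12:114048241-114048812, and its 353 coding bases come from 2 exons, 114048659 to 114048704 and 114048241 to 114048547. Igkv14-126 (ENSMUSG00000094345) lies on the plus strand of chr6:67896172-67896642, with coding exons at 67896177 to 67896231 and 67896345 to 67896642. Both are written 5′ to 3′ and in lower case, and capitals mark the bases that differ from the most similar variable gene of the same coding length.
Ighv11-2: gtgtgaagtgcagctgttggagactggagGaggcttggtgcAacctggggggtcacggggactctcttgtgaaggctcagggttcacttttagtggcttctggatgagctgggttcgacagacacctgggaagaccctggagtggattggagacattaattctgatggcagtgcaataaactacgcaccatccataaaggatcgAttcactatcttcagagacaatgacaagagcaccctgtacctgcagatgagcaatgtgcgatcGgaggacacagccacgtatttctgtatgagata
Igkv14-126: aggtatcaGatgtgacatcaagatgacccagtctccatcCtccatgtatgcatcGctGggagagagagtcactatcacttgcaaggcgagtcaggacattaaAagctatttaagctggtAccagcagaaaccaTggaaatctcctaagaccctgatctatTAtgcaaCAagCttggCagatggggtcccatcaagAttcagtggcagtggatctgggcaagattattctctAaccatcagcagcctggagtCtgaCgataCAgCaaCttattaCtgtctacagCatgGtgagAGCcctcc
The most similar gene to Ighv11-2 was Ighv11-1, with 4 different bases (98.9% identity), and the most similar to Igkv14-126 was Igkv14-111, with 30 (91.5% identity), 27 of them in the stretch shown. Reads can be shared with a copy as close as Ighv11-1, for which the members held 0 UMIs, and how such reads were assigned was not tested.

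Ighv11-2 was the most used heavy chain variable gene of the members in each of the 3 sets. A cell was assigned a heavy chain when it had at least 3 Ighv UMIs and more than 50% of them came from 1 gene, which held for 206 members. In sets 1 to 3, 7.61%, 10.0% and 7.41% of the assigned members used Ighv11-2, which are 7, 6 and 4 cells. Among the other IgM cells, which met the same conditions except that fewer than 3 of the 7 genes were present, the shares were 0.388%, 0.288% and 0.559%. The 2 groups did not overlap, at 8.34% ± 1.44 against 0.411% ± 0.137 (SD, n = 3 sets; difference 7.93 percentage points, exact two-sided permutation p = 0.1, the smallest that 3 against 3 allows, Benjamini-Hochberg adjusted p = 0.357 over 50 variable genes). The adjusted value does not pass a threshold of 0.05, and no value could in this design. Both groups of a set come from the same library, a pairing that the permutation does not use. With at least 4 of the 7 genes required, 3 members used Ighv11-2 and the difference was 4.15 points (exact permutation p = 0.4).

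The assignment rule fixes that these cells hold mostly Ighv11-2 among their Ighv UMIs, and the counts behind it are given as a description. The 17 members with Ighv11-2 held a median of 23 of its UMIs (range 4 to 126), and 93.8% of their Ighv UMIs came from it. Among the remaining 204 members, 2 cells had any Ighv11-2 UMI. Among 130 NK-like cells (at least 3 of 6 NK genes and 0 UMIs of Cd79a and Ms4a1), which should lack antibody genes and had a median of 6951 UMIs, 1 had an Ighv11-2 UMI and 0 were assigned to it. None of the 294 assigned class-switched cells with at least 3 of the 7 genes (switched Zbtb32 cells) used Ighv11-2, a count that allows a share of up to 1.02%, counting error only.

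The light chain followed the heavy chain. Igkv14-126 was the assigned light chain of 15 members, all 15 of them Ighv11-2 cells, or 15 of the 17. Its share was 6.74%, 8.33% and 7.41% of the members with an assigned light chain in sets 1 to 3, and 0.806%, 0.667% and 0.703% of the other IgM cells. These shares did not overlap either (7.49% ± 0.799 against 0.725% ± 0.0719, SD, n = 3; exact two-sided permutation p = 0.1, adjusted p = 0.314 over 44 light chain genes). Iglv2, Igkv12-46 and Igkv17-127 had the same p and adjusted p, so lack of overlap alone does not set Igkv14-126 apart. Their differences were 2.13, 2.10 and 1.10 points, against 6.77 for Igkv14-126. In the other IgM cells 40 of 58 Ighv11-2 cells were paired with Igkv14-126, so the pair was not found in the members alone. Ighv12-3, the other heavy chain gene well known for phosphatidylcholine binding, was used by 1 member and 27 other IgM cells.

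The remaining repertoire was spread widely, with 62 Ighv genes used by members and 15 of these in a single member. After Ighv11-2 came Ighv9-3 (4.35% ± 0.648 of assigned members, 3.81% ± 0.144 of other IgM cells), Ighv1-26 (3.79% ± 0.513 and 5.05% ± 0.0954), Ighv10-1 (3.60% ± 1.89 and 1.46% ± 0.0976) and Ighv1-72 (3.43% ± 0.238 and 1.85% ± 0.138), each SD over 3 sets. Of these 4, the sets of members and of other IgM cells overlapped for Ighv9-3 and not for the others. The exact permutation p was 0.3 for Ighv9-3 and 0.1 for the rest. Ighv3-6, level with Ighv1-72 in members, was lower than in other IgM cells without overlap (3.43% ± 0.238 against 3.94% ± 0.124, exact permutation p = 0.1). Ighv1-26, Ighv10-1, Ighv1-72 and Ighv3-6 had the same adjusted p as Ighv11-2 (0.357), so lack of overlap alone does not set Ighv11-2 apart. Their differences were -1.26, 2.14, 1.58 and -0.507 points, against 7.93 for Ighv11-2.

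**Figure D1:**
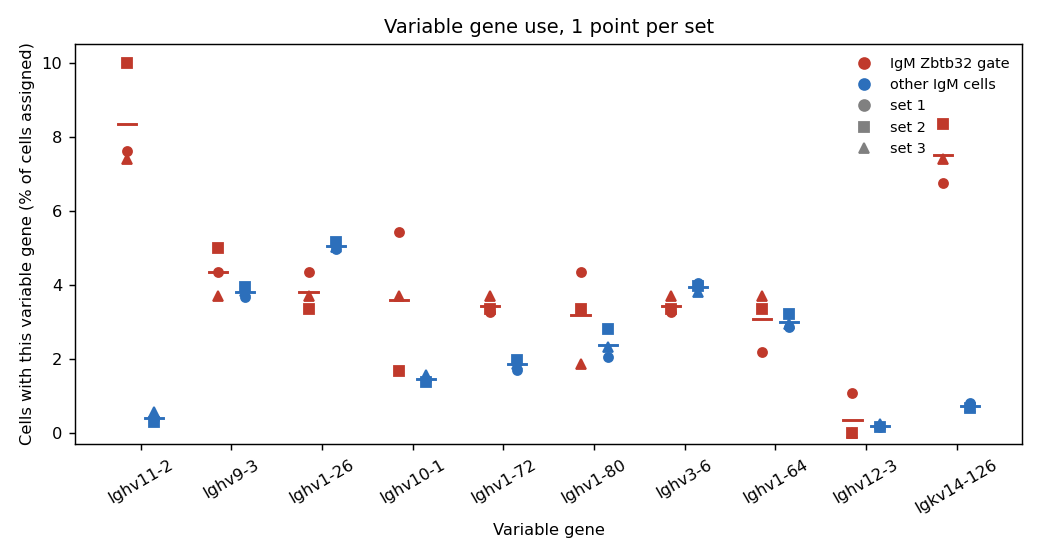
Share of cells (vertical axis, % of cells with an assigned variable gene of that chain) that used each variable gene (horizontal axis), 1 point per set with a bar at the mean, in gate members (red) and other IgM cells (blue). Ighv11-2 and Igkv14-126 lie at 6.74% to 10.0% of members and below 1% of other IgM cells.

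Ighv11-2 members were present under both treatments. In R848 they were 5 of 51, 4 of 33 and 2 of 34 assigned members in sets 1 to 3, and in IL-4+R848 they were 2 of 41, 2 of 27 and 2 of 20. These shares overlapped between treatments. Of all 118 Ighv11-2 cells among the 35102, 17 were gate members, 58 were other IgM cells, 17 met the secreting-cell condition, 24 had fewer than 5 Ighm UMIs and 2 were dividing. The share was 10.1% among members with exactly 3 of the 7 genes (14 of 138), 4.41% among those with 4 or more (3 of 68), 3.91% of the cells just outside, with 2 of 7 (15 of 384), and 0.312% of IgM cells with 0 or 1 (43 of 13778).

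Members with Ighv11-2 differed in other readouts from the 189 members assigned another heavy chain, a split chosen after the values were seen and given without a test. The CD273 surface tag was 0.48, 0.54 and -0.41 in sets 1 to 3 in Ighv11-2 members and -1.86, -1.87 and -1.82 in the others, on a centred log2 scale explained with the surface tags. The CD80 tag was also higher in each set (2.59, 2.17 and 2.00 against 1.28, 1.08 and 1.5), and the GL7 tag was lower (-1.79, -0.46 and -1.26 against 0.45, 0.90 and 0.34). A UMI of Il5ra, the receptor for IL-5 that B-1 cells carry, was found in 10 of 17 against 17 of 189, and one of Cd5, the classical B-1a surface protein, in 3 of 17 against 6 of 189. The other genes of the B-1 list went both ways, with Cd9 in 10 of 17 against 75 of 189, Siglecg, an inhibitory receptor, in 7 of 17 against 134 of 189, Bhlhe41 in 8 against 103, Spn in 3 against 62 and Itgam in 1 against 17. Cxcr3, a chemokine receptor of inflamed sites, was found in 0 of 17 against 55 of 189, and Batf, an activation factor needed for class switching, in 0 of 17 against 83 of 189. Cd3g, a T cell receptor component, had a UMI in 7 of 17 against 16 of 189, while Cd3e, Cd4 and Cd8a had none in any member. The Ighv11-2 members were shallower, with a median of 7674 UMIs against 10465.

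The rule's own genes describe how the members were chosen and support nothing further. Ass1, an enzyme of arginine synthesis, had a UMI in 86.4% of members, Zbtb32 in 81.9%, Fah in 61.5%, Ahnak in 57%, Parm1 in 23.5%, Cd80 in 19.9% and Fscn1 in 15.4%. Exactly 3 of the 7 genes were present in 146 members, 4 in 54, 5 in 17, 6 in 3 and all 7 in 1. Zbtb32 itself was thus not found in every member, and 12 members were chosen on Ass1, Ahnak and Fah alone. The commonest combination was Zbtb32 with Ass1 and Fah (37 members), followed by Zbtb32 with Ass1 and Ahnak (34). Across the threshold the summed Zbtb32 level was 148 UMIs per 1000000 in members with 3 genes and 75.3 in the 414 IgM cells with 2. The limit on division left some transcripts of the cycling list in place, with a UMI of Mki67 in 14.5% of members and 3.58% of other IgM cells and of Ube2c in 19.5% and 3.87%. The 6 cycling genes, 2 of them in the rule, summed to 48.4 to 104 UMIs per 1000000 in members and 22.8 to 40.4 in other IgM cells, and their part in other results was not tested. The isotype call was not clear-cut in every member, since 44 also had at least 5 switched UMIs, 57 had none, and 24 had less than 2 times as many Ighm as switched UMIs.

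Members were deeper than the cells they are set against. Their median was 10409 UMIs and 2682 genes, against 5748 UMIs and 1828.5 genes in the 15808 other IgM cells and 8612 UMIs and 2416 genes in the 334 switched Zbtb32 cells. Cells with a second heavy chain gene, a sign of doublets, made up 9.05%, 8.91% and 9.28% of the 3 groups. The sets held 97, 67 and 57 members and 10220 to 12611 cells each. Between pairs of sets, 168 to 209 cell barcodes were shared.

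The share of members differed less between treatments than between sets. Members were 0.742%, 0.674% and 0.478% of all cells in R848 and 0.859%, 0.633% and 0.413% in IL-4+R848, for sets 1 to 3. The means were 0.631% ± 0.137 and 0.635% ± 0.223 (SD, n = 3), and the exact two-sided permutation p was 1.0. Set 1 was highest and set 3 lowest under both treatments. As a share of IgM cells the values were 1.51% ± 0.266 and 1.26% ± 0.575 (exact permutation p = 0.6). Counting error alone gave 95% Wilson intervals from 0.568% to 0.969% for set 1 in R848 and from 0.270% to 0.631% for set 3 in IL-4+R848, the largest and the smallest of the 6 counts.

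The label of these cells as B-1-like or memory-like was checked against marker RNA. The rule uses RNA of the same cells, so the comparison with other IgM cells is a description and nothing is read from its counts. In the summed counts 19.8% of 6402 genes passed the fit across all genes (edgeR quasi-likelihood, adjusted p under 0.05), 11.7% higher and 8.12% lower in members. Of the 12 B-1 genes listed, 7 that the rule did not use were abundant enough to test, and 5 were higher: Spn (CD43), Bhlhe41, a repressor needed for B-1a cell renewal, Cd9, Ccdc28b and Plscr1. Their median log2 difference over the 7 was 1.97. Among 6 memory genes tested, only Cd44, an adhesion receptor, was higher, and the list's Cd80 and Zbtb32 belong to the rule. Nt5e was too rare for the test, with a UMI in 6.79% of members and 0.772% of other IgM cells. Cd27 had 0 UMIs in members, but only 0.449% of other IgM cells had one, so its absence says little.

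Bhlhe41 lay at 64.7, 80.3 and 113 counts per 1000000 (CPM) in R848 members and at 78.9, 85.6 and 64.7 in IL-4+R848 members, in sets 1 to 3. In other IgM cells, well below, it lay between 10.0 and 23.7 CPM in the 6 sums. A Bhlhe41 UMI was found in 52.5% of members, 8.07% of other IgM cells and 13.1% of the NK-like cells, and after thinning each cell to 2000 UMIs in 11.8% of members and 2.92% of other IgM cells. Spn and Cd9 were about as frequent in NK-like cells or more so (52.3% against 30.8% of members for Spn, 36.9% against 40.7% for Cd9), whereas Ccdc28b was found in 5.38% against 67%. In the switched Zbtb32 cells Bhlhe41 was also high, at 71.8 to 137 CPM, and the difference from the members missed the threshold (log2 difference -0.43 ± 0.14, SE, adjusted p = 0.113, edgeR). Il5ra and Cd5 were too rare for the test, with a UMI in 12.7% and 4.07% of members, 3.56% and 0.671% of other IgM cells, and 0.0% of NK-like cells.

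Of the 21 tested genes of the S100, annexin and cytoskeletal list, typical of antigen-experienced lymphocytes, 17 were higher and 0 lower (median log2 difference 1.27). S100a6, a calcium-binding protein, lay at 105 to 619 CPM in the 6 sums of members and 6.50 to 29.9 in those of other IgM cells, a log2 difference of 4.80 ± 0.42 (SE). Anxa2 (3.44 ± 0.34) and Lgals1 (2.84 ± 0.22) came from the same list. Spn (2.79 ± 0.37), Cd9 (2.30 ± 0.19) and Cxcr3 (2.66 ± 0.25) were also among the genes with the largest differences or the leading members of their lists.

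Genes of resting follicular cells were lower. Of 7 tested, 4 were lower and 0 higher: Ighd, the IgD heavy chain, Fcer2a (CD23), Satb1 and Ccr7, which guides cells into lymph nodes and towards the T cell zone. Ighd lay at 34.5 to 108 CPM in members and 253 to 321 in other IgM cells. Cr2 (CD21) differed by -2.80 ± 0.37 (SE) on the log2 scale and Icosl, the ICOS ligand, by -2.27 ± 0.22. Among 25 tested B cell fate factors, 4 were higher (Bhlhe41, Zbtb20, Arid3a and Tcf4) and 8 lower, among them Pax5 (-0.58 ± 0.11), Ebf1 (-0.93 ± 0.11) and Bach2 (-1.24 ± 0.14), factors that hold B cell identity.

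Markers of other cell types were found with this difference, and their part in it was not tested. Of the 8 T cell markers, 5 had a UMI in members and Cd3e, Cd4 and Cd8a had none, with summed levels of 49.4 to 116 UMIs per 1000000 in members and 28.3 to 34.4 in other IgM cells. Of the 6 monocyte or macrophage markers, 5 had a UMI and C1qa had none, at 34.6 to 291 against 21.1 to 56.7 UMIs per 1000000. The NK list lay at 0.0 to 4.61 UMIs per 1000000 in members, and the 5 neutrophil and 4 platelet markers had 0 UMIs. In all, 71 members (32.1%) had at least 2 UMIs of these other types' lists, against 7.21% of other IgM cells and 25.4% of switched Zbtb32 cells. This cut was not scaled to depth, and members were deeper (median 10409 UMIs against 5748 in other IgM cells). Lck of the T cell list had a UMI in 20.8% of members and 10.8% of other IgM cells. Without such cells Cd3g was not abundant enough to test, and the genes called higher fell from 747 to 372. The log2 differences of Bhlhe41, Spn, Cd9, S100a6, Anxa2 and Lgals1 still passed the threshold.

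The surface antibody tags are a readout apart from the RNA, although the CD80 and IgM tags report proteins of genes in the rule. Each tag was expressed as a centred log2 ratio, its log2 count minus the mean over the 12 tags of the cell, and averaged over cells. CD23, a follicular marker, was 2.21, 2.19 and 2.17 in members and 3.22, 3.44 and 3.37 in other IgM cells in sets 1 to 3. IgD was 1.67, 1.75 and 1.42 against 3.40, 3.60 and 3.38, and CD21 was 0.38 ± 0.39 against 1.29 ± 0.23 (SD, n = 3). CD273 was higher in members, at -1.73, -1.66 and -1.72 against -2.60, -2.57 and -2.54. GL7 (0.43 ± 0.27 against -0.22 ± 0.15), CD95 (0.54 ± 0.14 against 0.03 ± 0.24) and CD11c (-1.58 ± 0.05 against -2.14 ± 0.06), each SD over 3 sets, were higher as well. These means mix both treatments. CD95 was 0.80, 0.82 and 0.94 in R848 members against 0.27, -0.21 and 0.19 in other IgM cells. Within IL-4+R848 CD95 overlapped, at 0.55, -0.14 and -0.16 against 0.12, -0.27 and 0.06, and was lower in members in set 3.

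With treatments mixed, the sets of members and of other IgM cells did not overlap for 11 of the 12 tags, CD138 being the exception. Of these 11, CD95 and GL7 overlapped within IL-4+R848 and IgM within R848. The exact two-sided permutation p was 0.1 for each of the 11 (adjusted 0.109 over 12 tags), the smallest this design allows. The centring ties the tags of a cell together, so that a rise in 1 lowers the rest. On a plain log2(UMI + 1) scale 6 tags were without overlap: IgD, CD23 and CD93, lower in members, and CD273, CD80 and IgM, higher. IgM was 1.56 ± 0.10 against 0.94 ± 0.19 and CD80 1.35 ± 0.14 against -0.46 ± 0.11 (SD, n = 3), which the choice of members bears on.

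**Figure D2:**
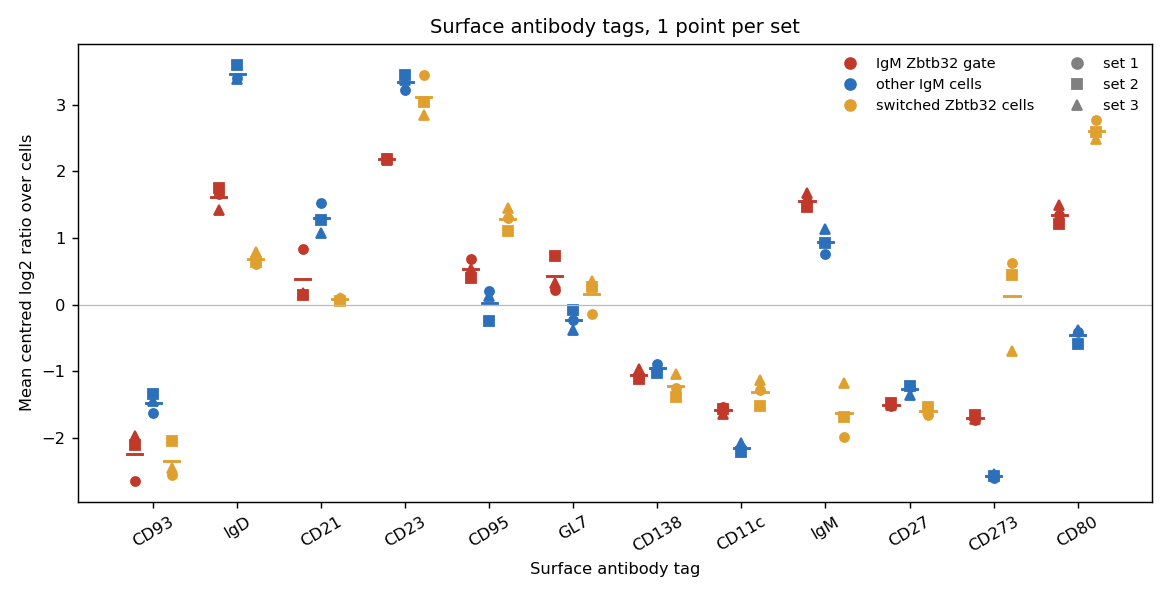
Mean centred log2 ratio over cells (vertical axis) of 12 surface antibody tags (horizontal axis), 1 point per set with a bar at the mean, in gate members (red), other IgM cells (blue) and switched Zbtb32 cells (yellow). Members lie below other IgM cells for IgD, CD21 and CD23 and above them for CD273 and CD80, and switched cells lie above members for CD273 and CD80.

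Against the switched Zbtb32 cells, which passed the same 7-gene rule, the members had a different surface. CD273 was -1.70 ± 0.04 in members and 0.13 ± 0.71 in switched cells, and CD80 was 1.35 ± 0.14 against 2.61 ± 0.14 (SD, n = 3). CD23 was lower in members (2.19 ± 0.02 against 3.11 ± 0.30), and IgD was higher (1.61 ± 0.17 against 0.69 ± 0.10). None of these 4 overlapped between the groups (exact two-sided permutation p = 0.1, adjusted 0.133 over 12 tags). Nor did CD21, CD95, CD11c, IgM and CD27, so most tags were without overlap in these means, whereas CD93, GL7 and CD138 overlapped. Taken by treatment, CD21, CD11c and CD27 overlapped within R848 and within IL-4+R848. CD27 in R848 was -1.61, -1.50 and -1.54 in members against -1.33, -1.42 and -1.66 in switched cells. The split of the groups by isotype bears on IgM and IgD. On the log2(UMI + 1) scale only CD273, CD80, IgD and IgM were without overlap, and CD23 overlapped (exact permutation p = 0.2). Treatments were mixed in these means, and within R848 CD273 was -1.88, -1.72 and -1.82 in members and -0.06, -0.15 and -0.91 in switched cells, within IL-4+R848 -1.54, -1.58 and -1.53 against 1.02, 1.07 and -0.14. The level of CD273 in the 17 Ighv11-2 members (-0.41 to 0.54) lay within the range of the switched cells (-0.69 to 0.62).

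In RNA, 161 genes were higher and 116 lower in members than in switched Zbtb32 cells, 4.33% of 6402 genes tested (2.51% higher, 1.81% lower). Of 20 tested genes of the B cell receptor list, 12 were higher and 0 lower (median log2 difference 0.40, against a median near 0 over all genes). They were Fcmr, the receptor for the IgM tail, Cd72, Fcrl5, Fcgr2b, Btk, Siglecg, Cd79b, Ms4a1 (CD20), Syk, Lyn, Blnk and Cd79a. Fcmr lay at 402 to 910 CPM in the 6 sums of members and 178 to 361 in those of switched cells, without overlap (log2 difference 1.26 ± 0.14, SE, adjusted p = 6.06e-05, edgeR).

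Of 7 tested genes of the B-1 list, 3 were higher in members (Cd9, Ccdc28b and Siglecg) and 0 lower (median log2 difference 0.52). A Spn UMI was found in 30.8% of members and 33.2% of switched cells. Cd9, Dtx1 and Plac8 of the marginal zone list were higher in members (3 of 6 tested higher, 0 lower). Plac8 lay at 1495 to 1961 CPM against 555 to 1130, and Cd9, a tetraspanin of marginal zone and B-1 cells, at 73.4 to 166 against 10.2 to 52.7 (1.93 ± 0.27, adjusted p = 0.000391, edgeR). Ighd, Satb1 and Cd55 of the follicular list were also higher in members, and the split by isotype bears on Ighd. The enzymes Ephx1 (2.00 ± 0.22) and Mgst1 (3.13 ± 0.43), the phosphatase Ptprj (2.11 ± 0.27) and Fam129c (1.99 ± 0.26) were among the 10 genes with the largest rises (log2, SE). Ighv11-2, at 122 to 398 CPM against 0.0 to 17.1, and Igkv14-126, at 166 to 1955 against 0.0 to 64.4, were higher too, and without the Ighv11-2 cells Igkv14-126 turned to -0.36 (adjusted p = 0.943, edgeR).

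Lower in members were Slpi, a protease inhibitor, at 4.62 to 49.4 CPM against 107 to 331 (-3.30 ± 0.42, adjusted p = 0.000187, edgeR), and Scimp, an adaptor of TLR signalling, at 9.79 to 176 against 158 to 361 (-2.0 ± 0.23, adjusted p = 6.43e-05). Of the memory list, 3 of 6 tested genes were lower: Pdcd1lg2, which encodes CD273, Ccr6 and Hhex, a factor needed for memory B cells. Of the age-associated list Fas and Cxcr3 were lower and Fcrl5 was higher, of 6 tested. Of 25 fate factors 6 were lower, among them Tox, which lay at a mean of 3.70 and 0.0 CPM in R848 and IL-4+R848 members and 21.6 and 26.1 in switched cells. Leaving out a set cut the called genes from 277 to 53 (without set 1), 89 (without set 2) and 131 (without set 3). Fcmr, Plac8, Cd9, Ephx1, Mgst1, Ptprj, Fam129c, Slpi and Scimp were called in each of these fits, whereas Pdcd1lg2 was called in none of them and Cd72, Fcrl5, Siglecg, Satb1, Ccr6, Hhex, Cxcr3 and Tox in 1. With the set as a replicate block Fcrl5 and Tyrobp were not called. Tyrobp and Wfdc17, genes of myeloid cells, were among the 10 largest rises (2.12 ± 0.59 and 2.54 ± 0.61, SE) and were called in none. The monocyte or macrophage list lay at 34.6 to 291 UMIs per 1000000 in members and 39.3 to 234 in switched cells, and its part in the result was not tested.

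IL-4 changed 47 of 4781 genes tested in the members (0.983%), 34 higher (0.711%) and 13 lower (0.272%), by edgeR's quasi-likelihood test with Benjamini-Hochberg adjusted p under 0.05. DESeq2 called 53, with 29 higher and 24 lower. Of the 34 rises 8 were ribosomal protein genes (Rps7, Rps20, Rpsa, Rpl3, Rpl10a, Rpl13, Rpl18 and Rpl32). DESeq2 called none of these, and neither did any fit that left out a set. All 47 moved the same way in every set, which their selection on these same sets largely brings about. IL-4 signals through its receptor and STAT6, and of 8 tested genes of that response list 1 rose, Nfil3, a STAT6 target that acts in class switching to IgE (median log2 change of the list 0.90, against a median near 0 over all genes). Nfil3 was 5.50, 4.20 and 3.15 CPM in R848 and 102, 180 and 125 CPM in IL-4+R848 in sets 1 to 3. The groups were far apart, with a UMI in 5 of 127 members in R848 and 55 of 94 in IL-4+R848, and the log2 change was 4.83 ± 0.39 (SE, adjusted p = 0.00013).

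Il4i1, a secreted amino acid oxidase of the same list, was 249, 164 and 148 CPM and 307, 421 and 426 CPM, without overlap, but missed the threshold (1.02 ± 0.22, adjusted p = 0.0563, edgeR). Fcer2a was 88.1, 67.2 and 22.1 against 111, 101 and 111 CPM (0.79 ± 0.34, adjusted p = 0.469, edgeR). Its protein, the CD23 tag, was 1.84, 1.54 and 1.93 in R848 and 2.65, 3.04 and 2.57 in IL-4+R848, also without overlap (exact two-sided permutation p = 0.1, adjusted 0.171 over 12 tags).

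The other large rises were shared among genes of several kinds. Rflnb, an actin regulator, was 9.17, 4.20 and 0.0 CPM in R848 and 102, 197 and 116 in IL-4+R848 (log2 change 4.67 ± 0.49, SE). Lifr, the LIF receptor, had 4 UMIs in 2 members in R848 and 67 UMIs in 38 members in IL-4+R848. St7 rose by 4.26 ± 0.53, Scn4a, a sodium channel subunit, by 3.13 ± 0.47 and Gadd45g, a stress response gene, by 2.75 ± 0.39 (log2, SE). Tmem123 was 136, 200 and 202 against 698, 981 and 913 CPM (2.27 ± 0.20, adjusted p = 0.000265, edgeR). Klhdc2, Samsn1, an adaptor that restrains B cell activation, and Auh complete the 10 largest rises outside the variable genes, at log2 changes between 1.97 and 1.99. Of variable genes, Ighv14-3, Ighv2-6-8 and Iglv2 rose and Ighv9-3 fell, each resting on few cells: Ighv14-3 had 2 UMIs in 2 members in R848 and 123 in 6 members in IL-4+R848, and Ighv2-6-8 had 5 in 1 and 139 in 3.

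Ifi30, a lysosomal thiol reductase that prepares antigen for MHC class II, was 585, 647 and 561 CPM in R848 and 1613, 1986 and 1789 in IL-4+R848, without overlap (1.59 ± 0.12, adjusted p = 0.00013, edgeR). Of 12 tested genes in the list for MHC class II and costimulation, H2-Aa rose (0.35 ± 0.06) and none fell, but H2-Aa was not called by DESeq2, and H2-Ab1 was at 0.26 ± 0.07 (adjusted p = 0.193, edgeR). Cd83, a surface protein that stabilises MHC class II, rose by 1.26 ± 0.25 and belongs to no list used here.

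Genes that fell included Mef2b, a germinal center transcription factor, at 103, 31.5 and 47.3 CPM in R848 and 2.13, 7.39 and 0.0 in IL-4+R848. It rested on few cells, with 86 UMIs in 13 of 127 members and 4 UMIs in 4 of 94 (log2 change -4.00 ± 0.73, SE, adjusted p = 0.0263, edgeR). The germinal center list summed to 106 to 148 UMIs per 1000000 in R848 members and 39.8 to 55.3 in IL-4+R848 members. Basp1 was 73.4, 60.9 and 50.5 CPM against 6.40, 4.93 and 0.0 (-3.70 ± 0.45, adjusted p = 0.00206, edgeR). Apoe, a lipid carrier, was 558, 645 and 454 against 173, 83.8 and 139 CPM (-2.07 ± 0.25, adjusted p = 0.00206, edgeR).

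Rgs1, which damps chemokine signals, fell by 1.61 on the log2 scale and Ccr7 by 1.36, the 1 gene of 13 tested trafficking receptors and of 7 follicular genes that changed. Cmah, an enzyme of sialic acid synthesis, fell by 1.28, Plek by 1.24, Aldh2 by 1.06 and Sat1 by 0.94. Scimp was 67.9, 151 and 177 CPM in R848 and 36.3, 9.86 and 27.8 in IL-4+R848 (-2.37 ± 0.45, adjusted p = 0.0319, edgeR). With the set as a replicate block Scimp, Rgs1, Sat1 and Klhdc2 were not called.

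**Figure D3:**
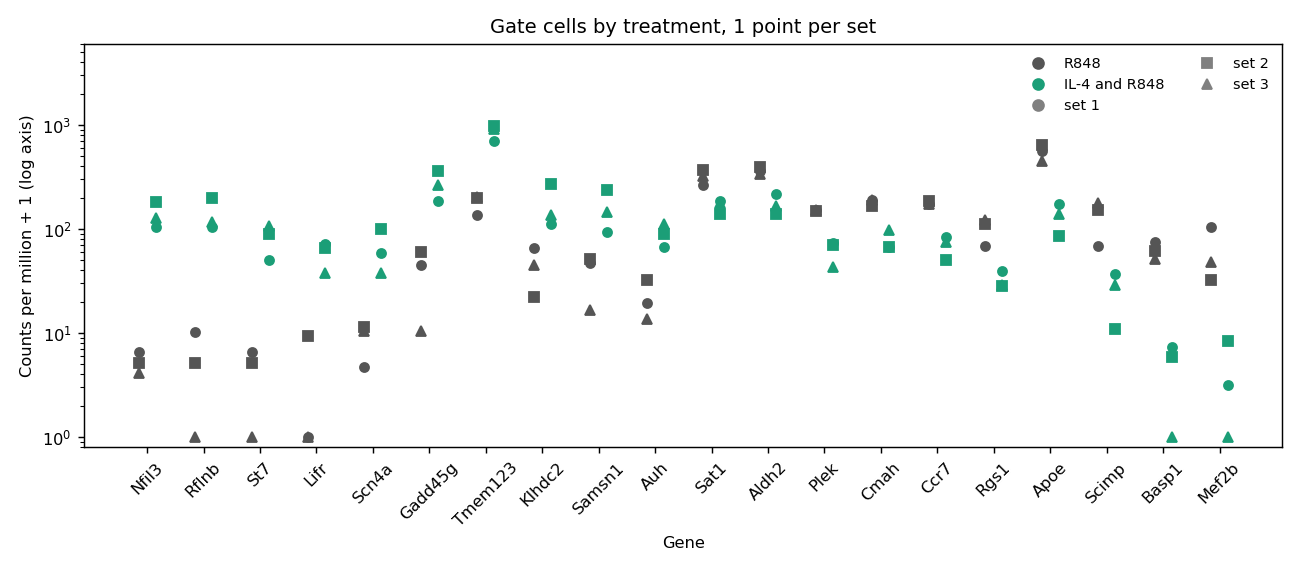
RNA level in gate members (vertical axis, CPM plus 1, log axis) of the 10 genes with the largest rises and the 10 with the largest falls (horizontal axis, variable genes left out) under IL-4, 1 point per set, R848 in grey and IL-4+R848 in green. For each gene the 3 sets of one treatment lie apart from the 3 of the other, and Nfil3 goes from 3.15 to 5.50 CPM up to 102 to 180 CPM.

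The genes that mark the members did not pass the threshold for IL-4. Of 6 B-1 genes tested 0 passed, but over all genes only 0.983% did, so the count says nothing particular of this list. A Bhlhe41 UMI was found in 52.1% of members in IL-4+R848 and 52.8% in R848, and a Spn UMI in 18.1% and 40.2%. Bhlhe41 was at -0.11 ± 0.25, Cd9 at 0.20 ± 0.31 and Ccdc28b at 0.28 ± 0.19 (log2, SE). Spn was 60.5, 73.5 and 126 CPM against 36.3, 9.86 and 18.5, without overlap, and missed the threshold (-1.87 ± 0.42, adjusted p = 0.072, edgeR). Of 18 S100, annexin and cytoskeletal genes, 22 fate factors, 16 TLR7 and NF-kB genes and 10 type I interferon genes tested, 0 passed, beside 0.983% of all genes. At an unadjusted p under 0.05 the fit held 485 genes of 4781.

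The CD95 tag was 0.80, 0.82 and 0.94 in R848 members and 0.55, -0.14 and -0.16 in IL-4+R848 members, and CD80 was 1.39, 1.68 and 1.72 against 1.29, 0.59 and 1.09. IgD was 1.52, 1.54 and 1.26 against 1.85, 2.03 and 1.69. Together with CD23, CD138, CD27 and CD273, 7 of 12 tags had no overlap between treatments (exact two-sided permutation p = 0.1, adjusted 0.171). IgM overlapped, at 1.6, 0.79 and 1.36 against 1.48, 2.36 and 2.20 (exact p = 0.2). On the log2(UMI + 1) scale 2 tags were without overlap, CD23 (5.57 against 6.81) and IgM (5.05 against 6.07, exact permutation p = 0.1 for both). With at least 4 of 7 genes required, 2 tags were without overlap on the centred scale.

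The response of the members was set beside that of the other IgM cells, in which 6.48% of 6402 genes were called for IL-4 (225 or 3.51% higher, 190 or 2.97% lower). Of the 47 genes, 46 had the same direction in other IgM cells and 36 were called there the same way. Nfil3 rose by 4.34 ± 0.19 in other IgM cells, Lifr by 5.86 ± 0.29, Ifi30 by 1.64 ± 0.17 and Tmem123 by 2.11 ± 0.16 (log2, SE). The 11 not called there were 4 variable genes and Mef2b, Scimp, Txndc5, Plek, Lcp1, Sat1 and Slc1a5. Scimp was between 26.1 and 30.7 CPM in all 6 sums of other IgM cells, and Txndc5, an endoplasmic reticulum protein, between 155 and 187.

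The difference between the 2 responses was tested itself, and 0 of 6402 genes passed with edgeR (0.0% called). At an unadjusted p under 0.05 there were 423 genes, and DESeq2 called 10. The lowest p-value belonged to Scimp, whose change in members was 2.27 lower on the log2 scale than in other IgM cells (-2.27 ± 0.45, adjusted p = 0.548). Cd9 came 4th in that order (1.57 ± 0.35, adjusted p = 0.548): it was 77.2, 76.2 and 107 CPM in R848 members and 74.8, 73.4 and 166 in IL-4+R848 members, and 32.1, 27.1 and 29.2 against 13.1, 10.2 and 10.1 in other IgM cells. In other IgM cells Cd9 fell with IL-4 (-1.41 ± 0.18, adjusted p = 4.21e-05, edgeR). Spn and Bhlhe41 were called lower there too, and of 7 B-1 genes tested 0 were higher.

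**Figure D4:**
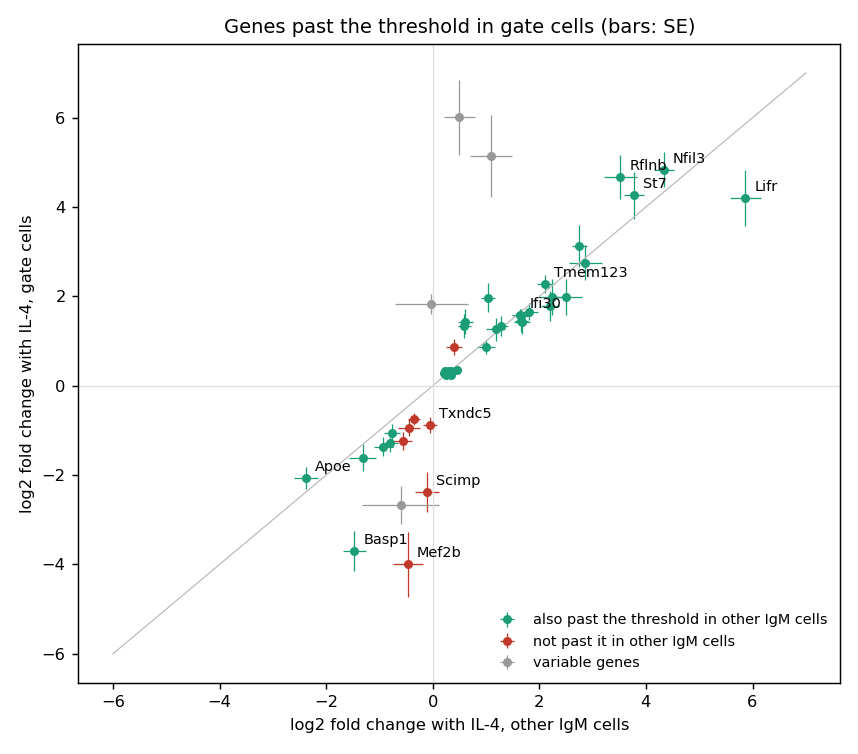
log2 fold change with IL-4 in gate members (vertical axis) against that in other IgM cells (horizontal axis) for the 47 genes called in members, with bars for the SE and a line of equal change. Most lie near the line, whereas Mef2b, Scimp and Txndc5 lie near 0 in other IgM cells and the 4 variable genes lie away from it; the difference was past the threshold for 0 genes.

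The IL-4 result in members rests on sums of 21 to 53 cells, and leaving out a set left 20 (without set 1), 20 (without set 2) and 29 (without set 3) genes called. Ifi30, Nfil3, Tmem123, Rflnb, Sypl, Apoe and Iglv2 were called in each of these 3 fits, and 25 of the 47, among them Ccr7, H2-Aa, Plek, Auh, Klhdc2 and Samsn1, in none. Mef2b, Rgs1, Scimp, Cd83, Cmah and Scn4a were called in 1 of the 3. All 47 kept their direction, in fits that reuse the sets they were chosen on. Without the cells that held markers of other types, 27 genes were called, and Nfil3, Ifi30, Tmem123 and Apoe were among them. Ccr7, Cmah, H2-Aa, Plek, Rgs1 and Sat1 were not, and Basp1 and Mef2b were not abundant enough to test in that fit. The T cell list lay at 49.4 to 116 UMIs per 1000000 in R848 and 55.5 to 92.2 in IL-4+R848 members, and the monocyte or macrophage list at 68.8 to 157 and 34.6 to 291.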

How the data were processed

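Spleen B cells of 3 hashed libraries were analysed from the deposited counts, which are whole-number UMI counts per cell for 32285 genes, 2 hashtags and 12 surface tags, which per the file headers the authors made using Cell Ranger 6.0.1. The build mm10 and Seurat 4.1.3 are named in the submitters' processing notes, without a role. Cells with at least 500 genes, under 10% mitochondrial UMIs and a clear hashtag (at least 64 UMIs and 4 times the other plus 1) were kept. No doublet caller was run. The sets held 96866964 to 107244246 gene UMIs.

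UMIs were summed per set, treatment and cell class. They were tested with edgeR 4.0.16 (quasi-likelihood, Benjamini-Hochberg, R 4.3.3), on 6 sums for IL-4 and on 18 for the rest, with DESeq2 1.42.0 as an alternative. Low genes were filtered with edgeR's filterByExpr. Shares, tags and variable genes were compared by exact two-sided permutation over sets. Cell classes and treatments of a set share a library, and neither these permutations nor the main fits used that pairing. SEs are of the log2 fold change. Variable gene sequences came from the GENCODE vM21 annotation of GRCm38. Named genes were list members and the 10 largest changes in each direction among genes past the threshold with at least 20 CPM and the same direction in every set, without the rule's genes and immunoglobulin variable genes. On simulated data, 50% of 2-fold and 88% of 4-fold changes were recovered for IL-4 (4781 genes), and 78% and 95% against switched cells (6402 genes).

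The members, gene lists and tests were chosen with earlier results of these data known. Same-numbered treatments share a library (same-set correlations 0.189, 0.0113 and 0.086), not a stated animal.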

Additional observations from a re-analysis of the deposited data

How the results depend on the processing

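Without a filter on low counts 272 genes were called for IL-4 in members (125 higher, 147 lower, which turns the main excess of rises), 536 against switched cells and 102 for the difference of the IL-4 responses. Against other IgM cells that setting gave 663 higher and 1012 lower. DESeq2 called 434 against switched cells and 10 for the difference of responses (2 higher, 8 lower). With at least 4 of 7 genes the calls were 10 for IL-4, 710 against other IgM cells and 45 against switched cells, and 2 tags by treatment had no overlap, with CD27 at -0.0122 in place of a rise. Without Ahnak in the rule they were 31 for IL-4 and 170 against switched cells. Without cells holding other types' markers they were 27 for IL-4 and 729 against other IgM cells, and without cells of 2 Ighv genes 26 for IL-4. On the log2(UMI + 1) scale, tags without overlap numbered 2 by treatment and 6 against other IgM cells. Leaving out a set gave 20 to 29 calls for IL-4, 551 to 758 against other IgM cells, 53 to 131 against switched cells, 0 to 1 for the difference of responses, 7 to 12 tags by treatment, 11 to 12 tags against other IgM cells and 7.03 to 8.47 points for Ighv11-2. The cause was not tested, except that fewer sets, cells or tested genes enter several of these. Without the Ighv11-2 cells Igkv14-126 turned to -1.65 against other IgM cells and -0.36 against switched cells, which that setting builds in.

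The share of members, 0.00392 percentage points higher with IL-4, was -0.0147 after thinning to 2000 UMIs (0.0355% and 0.0208% of cells), -0.00406 with at least 1000 genes, -0.0315 with a hashtag ratio of 8, and -0.0525 to 0.0383 on leaving out a set. With the set as a replicate block 55 genes were called for IL-4, 1347 against other IgM cells and 304 against switched cells, and no count moved by over 1.5 times, though Rgs1, Scimp, Sat1, Klhdc2, Snx29 and Slc1a5 lost their IL-4 call. The sets share a library, and not every same-set correlation was above 0.1, so the block is no pairing by animal. Of the named genes' values under the alternatives, 188 of IL-4 passed in the same direction and 74 kept the direction without passing. Against switched cells these were 448 and 136, and 1 was reversed. The IL-4 sums of 21 to 53 cells limit what small changes can show.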
